A study of Homo sapiens with 4 samples.

Results

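RNA sequencing of MDA-MB-231, an established breast cancer line of human origin, gave the messenger RNA levels of 10 tetraspanins after knockdown of JARID2. The genes were CD9, CD63, CD81, CD82, CD151, TSPAN3, TSPAN4, TSPAN6, TSPAN14 and TSPAN15, chosen by symbol, and all 10 were found among 25133 rows with a gene symbol. They are 10 of the 33 genes of the human tetraspanin family, all of which were found. The 10 were picked with the shJARID2 against shSCR results of these libraries already known, so their fold changes and calls below are a description, and no p-value is given for them. The knockdown group (shJARID2) carried a short hairpin against JARID2 and had 2 libraries. The control group (shSCR) carried a scrambled hairpin and also had 2 libraries. Both hairpins were delivered with Polybrene, the controls are labelled wild type, and JARID2 encodes an accessory subunit of Polycomb repressive complex 2.

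Tetraspanins cross the plasma membrane in 4 passes and have a small and a large extracellular loop. They act by binding partner proteins side by side in the membrane, among them integrins, immunoglobulin-domain proteins and metalloproteases, and gather these into microdomains. They are known for roles in adhesion, migration, proteolytic shedding and the formation of extracellular vesicles, and several of them have been linked to the spread of carcinoma cells.

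Depth read from the steps of the deposited values was 12920000 and 12773000 reads in shJARID2 replicates 1 and 2, against 15460000 and 16148000 in shSCR replicates 1 and 2. JARID2 itself was at 3.88 and 3.91 FPKM (fragments per kilobase of transcribed sequence, scaled for depth) in shJARID2, against 10.8 and 10.8 FPKM in shSCR. Of 6 genes set as markers of the line, MSN, CD44, EGFR and ZEB1 were at 47.1 FPKM or more in every library, VIM was at 2.10 to 4.20 FPKM and SPARC at most at 0.144 FPKM. VIM, which the line is known to express strongly, and SPARC, also set as a marker, were therefore low here. Exons of antisense genes cover 24.4% of those of VIM, so its value is uncertain, and 7.89% of those of SPARC. What lies behind these low values was not tested. How reads that map to several places or genes were counted is not given in the sources used here. ESR1, PGR, GATA3 and CDH1, which the line is known to lack or express weakly, were at most at 0.451 FPKM. Whether libraries of 1 group are separate cultures is not in the labels, so errors and p-values cover only the spread between these libraries, and fewer cells of a kind and less RNA per cell cannot be told apart.

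Most of the 10 tetraspanins were lower in the knockdown. By limma on log2(FPKM + 1) with an adjusted p below 0.05 over 12455 tested genes, 7 of the 10 were lower and 3 were higher, where 31.6% of all tested genes were lower and 28.0% higher. Of the 12455, 59.7% passed in either direction, and nothing is read from the members' count since this contrast was known when they were picked. The median log2 fold change of the 10 was -0.70, beside -0.02 over all tested genes. For each of the 10 the libraries of the 2 groups did not overlap, as was the case for 82.9% of all tested genes (39.8% higher and 43.1% lower in shJARID2). Summed over the 10 genes, expression was 151 and 153 FPKM in shJARID2, against 190.0 and 191 FPKM in shSCR. Without CD151, the highest of them by FPKM, the sums were 71.4 and 75.5 FPKM in shJARID2, against 118 and 119 FPKM in shSCR.

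**Figure D1:**
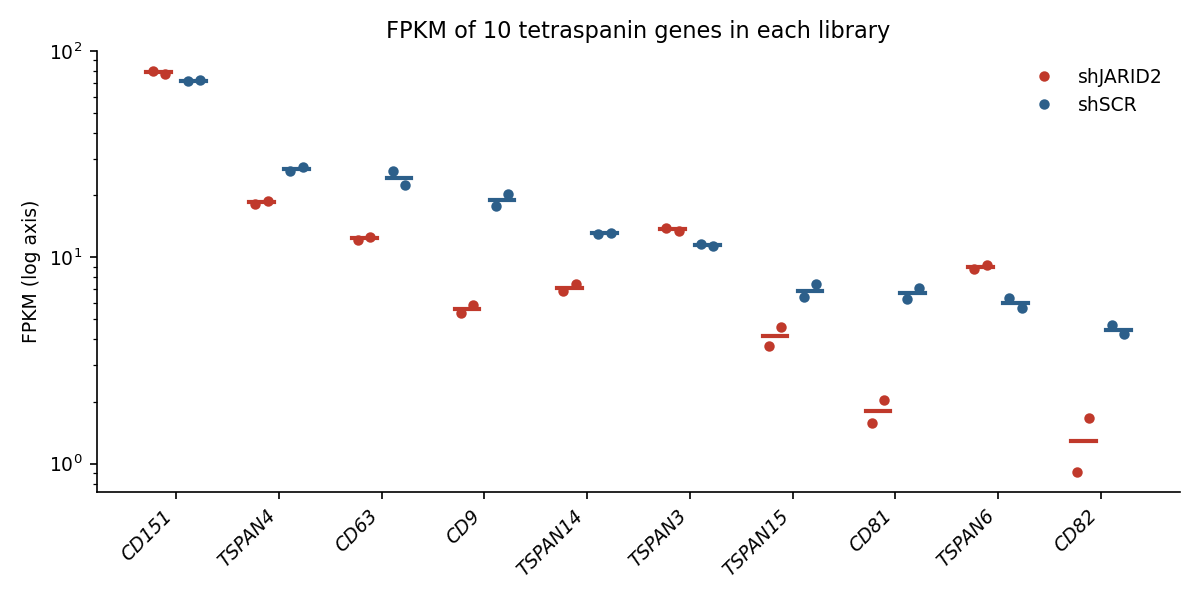
FPKM (vertical, log axis) of the 10 genes, ordered by their mean in shSCR, with 2 libraries of shJARID2 (red) and 2 of shSCR (blue) as points and group means as lines. CD9, CD81 and CD82 have the widest gaps between the groups, and CD151, at the top of both groups, one of the smallest.

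Fold changes in these libraries followed the GC content of transcripts (Spearman's rho of -0.72 across 10446 protein-coding genes, which are not independent replicates). Of the 10 tetraspanins, 7 have a transcript GC content above the median of those genes (48.9%), and the range is from 43.8% in TSPAN6 to 64.3% in TSPAN4. A value corrected for this trend is therefore given beside each measured log2 fold change. After the correction 5 of the 10 were lower and 4 higher, where 21.5% of 12056 genes were lower, 22.7% higher and 44.2% either, and the median of the 10 was -0.30. The part that GC content plays in the fold change of any single gene was not tested.

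CD9 was among the 3 members that fell most, together with CD81 and CD82. CD9, which organises adhesion and membrane fusion and binds the immunoglobulin-domain protein encoded by IGSF8, was at 5.38 and 5.89 FPKM in shJARID2, against 17.7 and 20.4 FPKM in shSCR. Both knockdown libraries were far below both controls, at 0.296 times their mean. The log2 fold change was -1.59 (SE 0.0903), and the GC-corrected value was the same to 2 decimals, since CD9 transcripts have a GC content of 48.8%, close to the middle of all genes. A lower measured log2 fold change was found in 0.935% of tested genes, and a lower corrected one in 0.473%. This place is a description, since CD9 was picked with this contrast known. CD9 (gene ID 928) occupies bases 6199715 to 6238271 of chromosome 12 (GRCh38, + strand), and no other gene's exons overlap its own.

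CD81 and CD82, the relatives found with CD9 in many cells, were lower by a similar factor. CD81, a receptor of hepatitis C virus, was at 1.58 and 2.03 FPKM in shJARID2, against 6.28 and 7.08 FPKM in shSCR. CD82, described as a suppressor of metastasis in prostate cancer, was at 0.914 and 1.66 FPKM in shJARID2, against 4.70 and 4.24 FPKM in shSCR. CD82 was the weakest of the 10 by FPKM in both groups, and its knockdown libraries held about 48 and 86 reads, against 294 and 277 in the controls. The mean of shJARID2 was 0.270 times that of shSCR for CD81 and 0.288 times for CD82. The log2 fold change was -1.46 (SE 0.120, GC-corrected -0.89) for CD81 and -1.28 (SE 0.187, GC-corrected -0.69) for CD82. Both were called lower with and without the correction. The added 1 in the logarithm shrinks the change of such weakly expressed genes. With 0.1 added in its place the log2 fold changes were -1.84 for CD81, -1.77 for CD82 and -1.74 for CD9, so the order of the 3 depends on the added value.

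CD63, a tetraspanin of late endosomes and lysosomes that is widely used as a marker of exosomes, fell as well. It was at 12.2 and 12.5 FPKM in shJARID2, against 26.3 and 22.3 FPKM in shSCR. The knockdown libraries lay close together, while the controls differed more from each other. The log2 fold change was -0.92 (SE 0.0889, GC-corrected -0.64), and both values were called. Exons of an antisense gene on the opposite strand cover 9.0% of those of CD63, and whether the counting used strand is not given in the sources used here.

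TSPAN14 and TSPAN15 belong to the TspanC8 group, whose members have 8 cysteines in the large loop and escort the protease ADAM10 to the cell surface. TSPAN14 was at 6.86 and 7.39 FPKM in shJARID2, against 12.9 and 13.2 FPKM in shSCR, a log2 fold change of -0.79 (SE 0.0617, GC-corrected -0.44) that was called lower under both measures. TSPAN15 was at 3.74 and 4.60 FPKM in shJARID2, against 6.39 and 7.40 FPKM in shSCR. Its groups did not overlap, but its libraries spread more, and the log2 fold change of -0.61 (SE 0.122) was not called after GC correction (-0.15) or without shSCR replicate 2 (-0.52).

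TSPAN4 is the one gene of the 10 whose direction turned with the GC correction. TSPAN4, known for its part in forming migrasomes on the retraction fibres of migrating cells, was at 18.0 and 18.8 FPKM in shJARID2, against 26.1 and 27.4 FPKM in shSCR. It was called lower as measured (log2 fold change -0.52, SE 0.0514) and higher after GC correction (0.28, SE 0.0381). Its transcripts have the highest GC content of the 10, so no direction is given for it.

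CD151, the partner of laminin-binding integrins, had by far the highest FPKM of the 10 and did not fall. It was at 80.1 and 77.5 FPKM in shJARID2, against 71.7 and 71.9 FPKM in shSCR, a mean 1.10 times as high. The log2 fold change was 0.13 (SE 0.0402), a call that ended when any 1 of the 4 libraries was left out (0.11 to 0.15), when weakly expressed rows were kept in, or under a replicate block. After GC correction the value was 0.86 (SE 0.0587), higher than that of 96.7% of genes. The measured and the corrected size therefore differ widely for CD151, whose transcripts have a GC content of 62.6%. Exons of POLR2L and of an antisense gene, both on the opposite strand, cover 7.57% of its own.

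TSPAN6 and TSPAN3 were higher in the knockdown. TSPAN6 was at 8.79 and 9.13 FPKM in shJARID2, against 6.35 and 5.71 FPKM in shSCR, a log2 fold change of 0.50 (SE 0.0741, GC-corrected 0.27). TSPAN3 was at 13.9 and 13.5 FPKM in shJARID2, against 11.6 and 11.3 FPKM in shSCR, a log2 fold change of 0.24 (SE 0.0515, GC-corrected 0.19). Both were called higher under both measures, although TSPAN3 lost its call without shSCR replicate 1, shSCR replicate 2 or shJARID2 replicate 1, and TSPAN6 lost its call when the GC correction was combined with a replicate block. Together with CD151, the count of higher members was 3 with all libraries, 2 without shJARID2 replicate 2 and 1 without any of the other libraries.

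**Figure D2:**
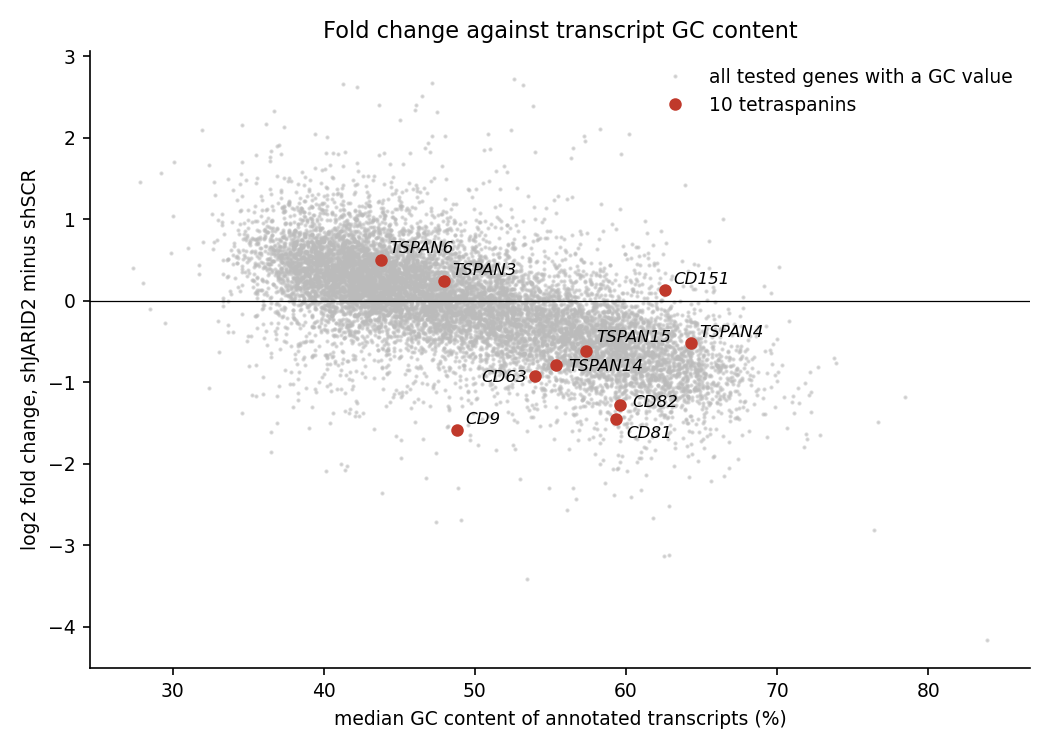
Measured log2 fold change (vertical, shJARID2 minus shSCR) against the median GC content of a gene's annotated transcripts in percent (horizontal), with tested genes as grey points and the 10 tetraspanins in red. CD9, at 48.8% GC, is at -1.59, while CD151, at 62.6% GC, is at 0.13.

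Promoter sequences were looked at for the members called lower under both measures. RefSeq promoters (GRCh38.p14) were matched for 7 of the 10 genes, and the 250 bases before the RefSeq start are shown 5′ to 3′ for CD9, CD63, CD82 and TSPAN14, because these are the members with a window among the 5 that were lower with and without the GC correction. Capitals mark the GC box (GGGCGG or CCGCCC) and the CCAAT box (CCAAT or ATTGG), searched on both strands.
CD9: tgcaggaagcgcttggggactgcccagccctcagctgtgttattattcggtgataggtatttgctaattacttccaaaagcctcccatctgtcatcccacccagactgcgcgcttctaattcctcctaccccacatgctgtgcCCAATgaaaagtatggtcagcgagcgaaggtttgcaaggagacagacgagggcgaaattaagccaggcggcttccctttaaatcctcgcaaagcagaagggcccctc
CD63: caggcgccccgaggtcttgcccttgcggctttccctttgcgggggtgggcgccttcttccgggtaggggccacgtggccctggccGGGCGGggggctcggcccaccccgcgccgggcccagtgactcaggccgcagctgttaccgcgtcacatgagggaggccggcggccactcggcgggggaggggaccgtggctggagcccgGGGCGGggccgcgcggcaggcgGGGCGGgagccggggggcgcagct
CD82: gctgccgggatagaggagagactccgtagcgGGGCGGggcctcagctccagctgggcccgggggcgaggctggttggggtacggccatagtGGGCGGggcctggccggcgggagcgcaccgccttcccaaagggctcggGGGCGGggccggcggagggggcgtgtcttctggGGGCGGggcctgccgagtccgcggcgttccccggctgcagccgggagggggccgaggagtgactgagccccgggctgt
TSPAN14: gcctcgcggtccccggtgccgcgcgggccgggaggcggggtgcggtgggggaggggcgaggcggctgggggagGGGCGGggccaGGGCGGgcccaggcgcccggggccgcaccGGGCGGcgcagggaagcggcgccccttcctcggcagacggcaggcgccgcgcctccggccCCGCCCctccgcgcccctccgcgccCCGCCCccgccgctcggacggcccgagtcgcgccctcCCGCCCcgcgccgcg

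The 4 windows differ in composition. That of CD9 (chr12:6199696-6199945, + strand) has a GC content of 52.8%, 10 CpG sites, no GC box and 1 CCAAT box. That of CD63 (chr12:55729010-55729259, - strand) has 79.2% GC, 30 CpG sites and 3 GC boxes, and that of CD82 (chr11:44565413-44565662, + strand) has 77.2% GC, 26 CpG sites and 4 GC boxes. The window of TSPAN14 (chr10:80454060-80454309, + strand) is the richest in GC, with 88.0%, 45 CpG sites and 6 GC boxes. Neither motif is in all 4 windows. Over all 35116 promoters of this length 42.6% hold a GC box and 32.0% a CCAAT box, and 5 and 2 of the 7 members do. None of these 7 has the TATA letters (TATAAA or TTTATA), which 10.7% of all promoters hold. The RefSeq starts of CD9, CD63, CD82 and TSPAN14 lie 231, 698, 1236 and 144 bases inside the gene as GENCODE release 29 draws it, so earlier starts exist. The match is a description of letters and says nothing of the factors that bind.

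The make-up of the 10 changed along with their levels. CD151 held 52.9% and 50.7% of their summed FPKM in shJARID2, against 37.8% and 37.6% in shSCR. CD9 held 3.55% and 3.85% in shJARID2, against 9.32% and 10.7% in shSCR. These shares do not depend on how the libraries are scaled to each other. The shares and the ranks below are of measured FPKM, without the GC correction. TSPAN6 and TSPAN3 have the lowest transcript GC content of the 10 (43.8% and 48.0%). The part that GC content plays in the shares and ranks was not tested. FPKM here divide by the length of all annotated exons of a gene, 17888 bases in TSPAN14 and 2633 in CD63. Shares and ranks between genes therefore also depend on the annotation. How they would stand by the length of the transcripts in use was not tested. By mean FPKM, TSPAN3 ranked 3 in shJARID2 and 6 in shSCR, TSPAN6 ranked 5 and 9, and CD9 ranked 7 and 4 in the same groups. In shJARID2 all neighbours in the order were apart in their libraries except CD81 and CD82. In shSCR the libraries of TSPAN4 and CD63 overlapped, as did those of TSPAN15 and CD81 and of CD81 and TSPAN6. In shSCR the level of CD151 lay above that of 97.5% of tested genes and that of CD82 above 37.4%.

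**Figure D3:**
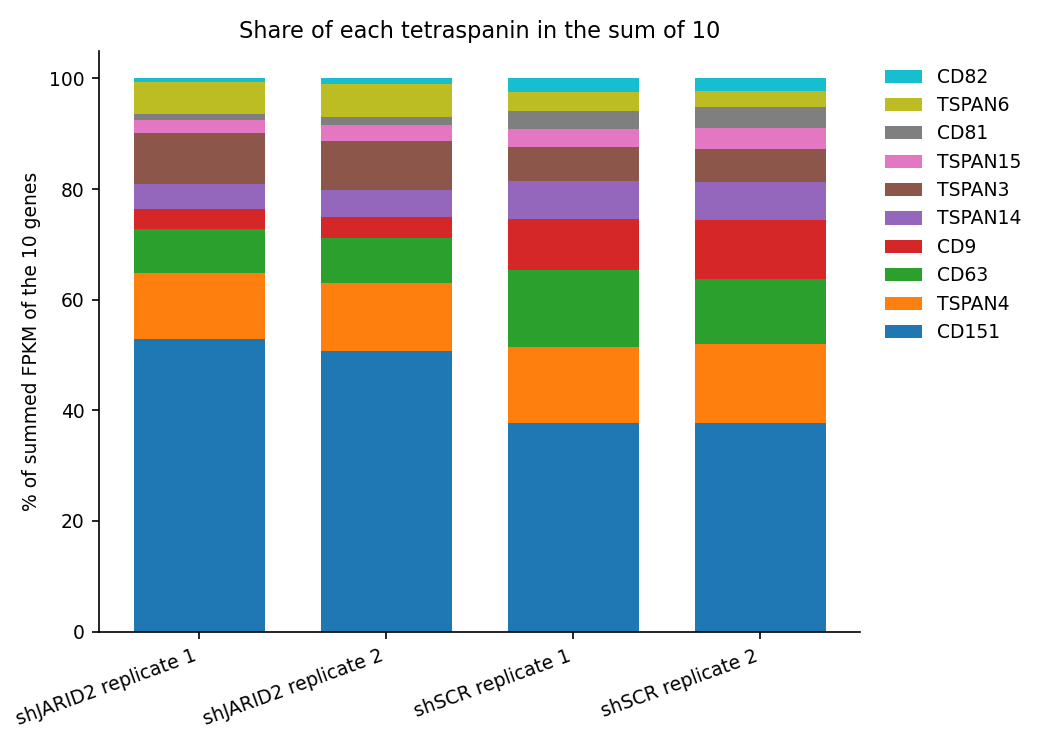
Share of each tetraspanin in the summed FPKM of the 10 (vertical, percent) in each library, with both shJARID2 libraries left of both shSCR libraries. The CD151 share is 52.9% and 50.7% in shJARID2, against 37.8% and 37.6% in shSCR, and the bands of CD9, CD81 and CD82 are thinner in shJARID2.

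Of the other 23 tetraspanins, 6 reached a mean of 1 FPKM and were tested, and 17 were below it. Of the 6, TSPAN12 was higher, CD37 and TSPAN17 were lower and 3 did not pass. The shares over all tested genes were 28.0% higher and 31.6% lower. After GC correction 0 of the 6 were higher, 2 lower and 4 did not pass, where 22.7% of all genes were higher and 21.5% lower. TSPAN17, a further TspanC8 member, was at 6.57 and 6.92 FPKM in shJARID2, against 12.6 and 12.4 FPKM in shSCR (log2 fold change -0.80, SE 0.0573, adjusted p = 0.00147 by limma with Benjamini-Hochberg adjustment, GC-corrected -0.27, adjusted p = 0.0154). Its libraries were apart, and it was called under both measures and in all 13 alternatives, with adjusted p from 1.93e-08 to 0.0301 by limma.

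CD37, best known as a tetraspanin of leukocytes, was at 0.742 and 1.03 FPKM in shJARID2, against 2.98 and 3.07 FPKM in shSCR (log2 fold change -1.10, SE 0.127, adjusted p = 0.00324 by limma, GC-corrected -0.58). With a mean of 0.887 FPKM in shJARID2, CD37 entered the test only through its level in shSCR, so its adjusted p is a description. The leukocyte markers PTPRC, CD3E and CD53 were at most at 0.119 FPKM in any library, and CD14 at most at 0.445 FPKM. Summed over 5 leukocyte markers, CD37 among them, the level was 1.27 and 1.23 FPKM in shJARID2, against 3.56 and 3.48 FPKM in shSCR. Without CD37 the other 4 summed to 0.526 and 0.199 FPKM in shJARID2, against 0.587 and 0.404 FPKM in shSCR, so the lower sum is mostly CD37 itself. Exons of TEAD2 and of a long noncoding gene on the opposite strand cover 10.8% of those of CD37, so its value is uncertain.

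TSPAN12, a coreceptor of Norrin signalling with FZD4 in the retina, was at 2.13 and 2.55 FPKM in shJARID2, against 1.48 and 1.50 FPKM in shSCR. Its log2 fold change of 0.42 (SE 0.117, adjusted p = 0.0349 by limma) was not called after GC correction (0.29, adjusted p = 0.0980) and lost its call in 7 of 13 alternatives. Over the 13 the adjusted p from limma ran from 0.00801 to 0.135. TSPAN5, also of the TspanC8 group, was at 13.6 and 14.2 FPKM in shJARID2, against 13.3 and 13.0 FPKM in shSCR and did not pass (0.07, GC-corrected -0.11, adjusted p = 0.315 by limma). TSPAN9 was at 1.48 and 2.25 FPKM in shJARID2, against 2.59 and 2.73 FPKM in shSCR (-0.37, GC-corrected 0.13, adjusted p = 0.118 by limma). Over the 13 alternatives the log2 fold change of TSPAN9 ran from -0.56 to 0.13, and it gained a call in 2 of them. TSPAN31 was at 3.03 and 3.64 FPKM in shJARID2, against 2.85 and 3.59 FPKM in shSCR (0.04, adjusted p = 0.816 by limma), with 30.1% of its exon bases under exons of CDK4 and other genes. The remaining 17 tetraspanins were at most at 1.35 FPKM in any library, and 11 of them stayed under 0.5 FPKM in every library.

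**Figure D4:**
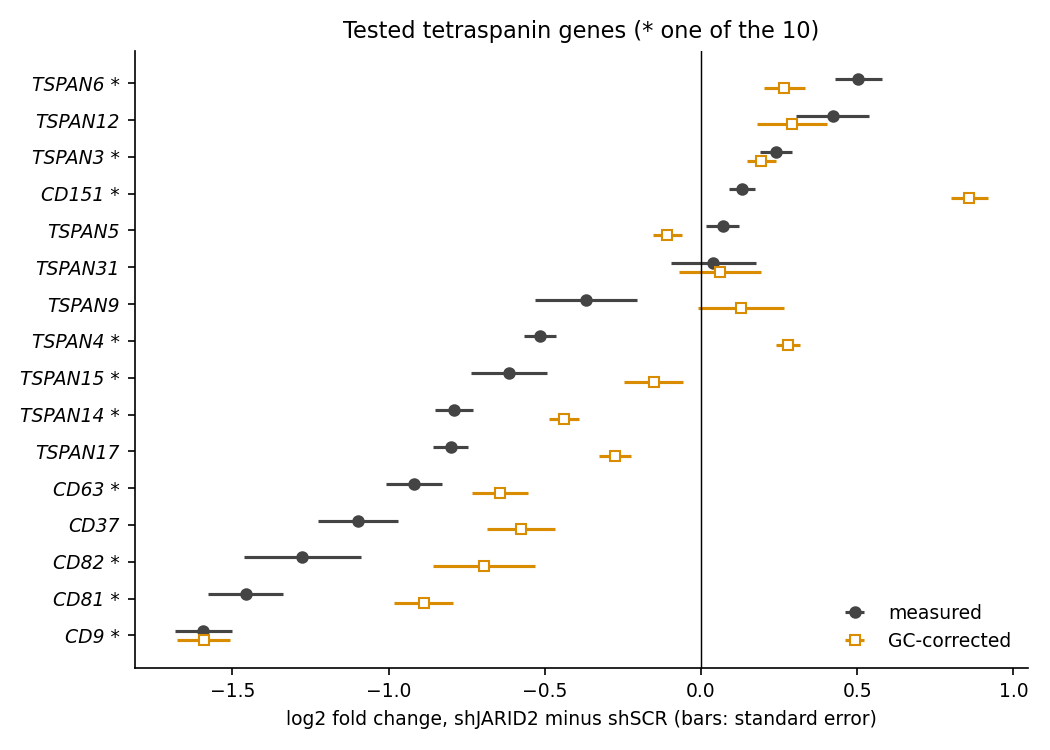
Log2 fold change (horizontal, shJARID2 minus shSCR, bars are standard errors of 2 against 2 libraries) of the 16 tested tetraspanins, measured (filled circles) and after GC correction (open squares). CD9 keeps its value with the correction, CD151 goes to 0.86, and TSPAN4 lies on opposite sides of 0.

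Known partners of tetraspanins moved in both directions. Of 19 partner genes 15 were tested, and 4 were higher, 9 lower and 2 did not pass, where 28.0% of all tested genes were higher and 31.6% lower. After GC correction 2 were higher, 7 lower and 6 did not pass, where 22.7% of all genes were higher and 21.5% lower. The median log2 fold change of the 15 was -0.29 (-0.19 corrected), beside -0.02 (0.00033 corrected) over all tested genes. The list was drawn up with earlier results of these data known. MMP14, EPCAM, ITGA3, ITGA6, ITGB4 and IGSF8 are named because they were its called genes of largest change. Their measured adjusted p-values were therefore under 0.05 by choice and are a description. MMP14, a membrane-bound matrix protease, was at 22.6 and 24.3 FPKM in shJARID2, against 61.1 and 61.4 FPKM in shSCR (-1.35, GC-corrected -0.79, adjusted p = 0.00140 by limma). EPCAM, an epithelial adhesion molecule found in complexes with CD9, was at 4.90 and 3.78 FPKM in shJARID2, against 1.36 and 1.35 FPKM in shSCR (1.18, GC-corrected 0.98, adjusted p = 0.00319 by limma).

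The 4 listed integrin subunits that pair with CD151 were lower, while CD151 was not. ITGA3, which forms a laminin receptor with ITGB1, was at 81.5 and 88.3 FPKM in shJARID2, against 142 and 146 FPKM in shSCR (-0.75, GC-corrected -0.19, adjusted p = 0.00148 by limma). ITGA6 was at 0.875 and 0.813 FPKM in shJARID2, against 2.28 and 2.66 FPKM in shSCR (-0.91, GC-corrected -1.22, adjusted p = 0.00451 by limma). With a mean of 0.844 FPKM in shJARID2, ITGA6 entered the test only through its level in shSCR. ITGB4, its partner in hemidesmosomes, was at 2.18 and 2.15 FPKM in shJARID2, against 6.55 and 6.08 FPKM in shSCR (-1.21, GC-corrected -0.47, adjusted p = 0.00140 by limma). ITGB1, singled out with its values in view, measured 140 and 145 FPKM in shJARID2, against 186 and 184 FPKM in shSCR (-0.38, GC-corrected -0.68), and no p-value is given for it. All 4 were called lower under both measures, where 31.6% of all tested genes were lower (21.5% after GC correction). Their libraries did not overlap between the groups, as was the case for 82.9% of all tested genes (43.1% lower).

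Of the immunoglobulin-domain partners of CD9 and CD81, IGSF8 was lower together with them. It was at 2.65 and 2.59 FPKM in shJARID2, against 6.35 and 6.32 FPKM in shSCR (-1.02, adjusted p = 0.00144 by limma), a call that ended after GC correction (-0.25, adjusted p = 0.0618, from 1.62e-06 to 0.0789 over 13 alternatives). The other, PTGFRN, was near 0, with 2 and 5 reads in shJARID2, against 0 and 0 in shSCR, and was not tested. How reads that map to several places were counted is not given, so no absence of PTGFRN from the line is read from this.

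ADAM10 was higher while 3 of its escorts were lower as measured, 2 of them also after GC correction. ADAM10, which sheds the ectodomains of Notch and other surface proteins, was at 17.2 and 16.5 FPKM in shJARID2, against 10.9 and 10.6 FPKM in shSCR (0.60, SE 0.0524, adjusted p = 0.00186 by limma, GC-corrected 0.30, adjusted p = 0.00767). It stayed higher in all 13 alternatives, which refit the same libraries, with log2 fold changes of 0.30 to 0.67. The partner list, which holds ADAM10, was drawn up with earlier results of these data known, so its adjusted p-values are a description. Of the 6 TspanC8 genes 4 were tested, and TSPAN14, TSPAN15 and TSPAN17 were lower while TSPAN5 did not pass. After GC correction 2 were lower, TSPAN14 and TSPAN17. Over all tested genes 31.6% were lower and 28.0% higher (21.5% and 22.7% after GC correction), and nothing is read from these counts. No TspanC8 gene was called higher. TSPAN10 and TSPAN33, the remaining members of the group, were below the filter.

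**Figure D5:**
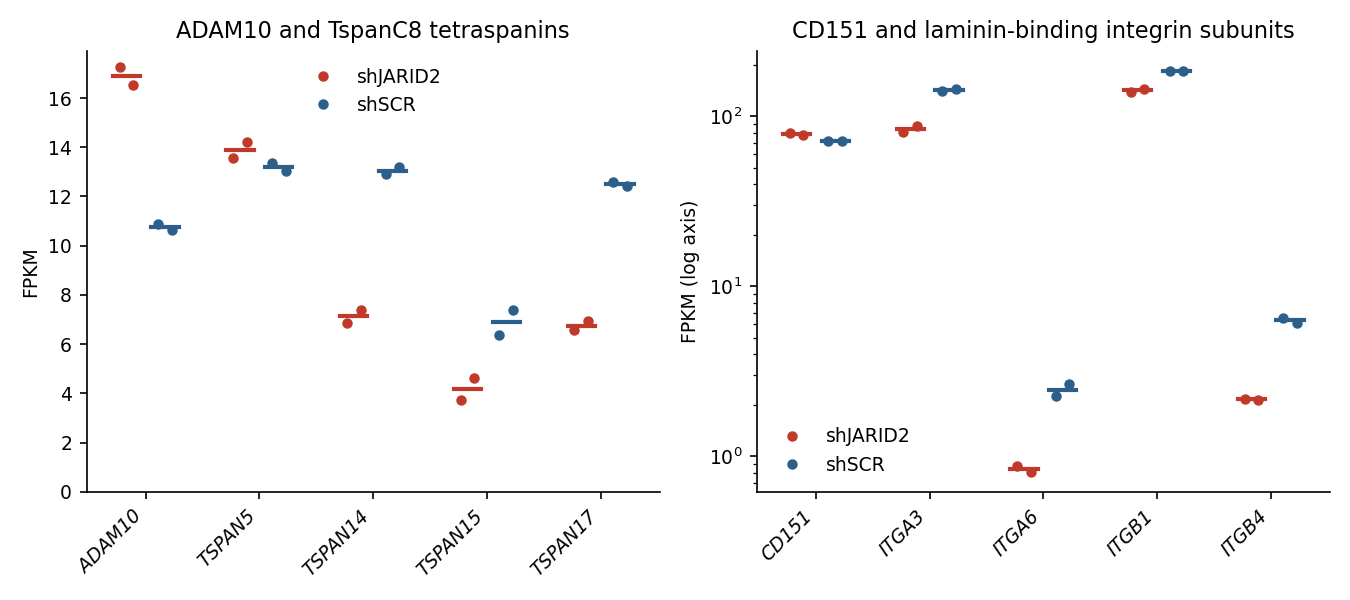
FPKM of ADAM10 and the 4 tested TspanC8 genes (left, linear axis) and of CD151 with 4 integrin subunits (right, log axis), as points for the 2 shJARID2 (red) and 2 shSCR (blue) libraries with group means as lines. ADAM10 is higher in shJARID2 while TSPAN14, TSPAN15 and TSPAN17 are lower, and the 4 integrin subunits are lower while CD151 is at 80.1 and 77.5 in shJARID2, against 71.7 and 71.9 in shSCR.

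Genes that build and release extracellular vesicles, whose membranes carry CD9, CD63 and CD81, moved in both directions. Of 25 genes 24 were tested, and 9 were higher, 9 lower and 6 did not pass (8, 6 and 10 after GC correction), with a median log2 fold change of -0.05. Over all tested genes 28.0% were higher and 31.6% lower (22.7% and 21.5% after GC correction). Nothing particular to this list is read from its counts. The genes named from it here and below were its called genes of largest change. Their measured adjusted p-values were therefore under 0.05 by choice and are a description. SDCBP, which encodes syntenin-1, an adaptor that binds CD63 and syndecans, was at 91.5 and 85.4 FPKM in shJARID2, against 39.9 and 37.6 FPKM in shSCR. Its log2 fold change was 1.17 (GC-corrected 0.81, adjusted p = 0.00140 by limma), the opposite direction to CD63. RAB11A, a small GTPase of recycling endosomes, was also higher (0.82, GC-corrected 0.55, adjusted p = 0.00140 by limma).

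Among the lower genes of this list, RAB35 (-1.24, GC-corrected -0.72, adjusted p = 0.00140 by limma) and ARF6 (-0.94, GC-corrected -1.22, adjusted p = 0.00604 by limma), both GTPases of endocytic recycling, were lower under both measures. Exons of an antisense gene cover 14.8% of those of RAB35, so its value is uncertain, and ARF6 was low, at 0.460 and 0.586 FPKM in shJARID2, against 1.75 and 2.08 FPKM in shSCR. With a mean of 0.523 FPKM in shJARID2, ARF6 entered the test only through its level in shSCR. HGS, which sorts cargo into endosomal vesicles (-0.93, adjusted p = 0.00414 by limma), and the membrane scaffold gene FLOT2 (-0.72, adjusted p = 0.00430 by limma) lost their calls after GC correction, at -0.22 and -0.21. HGS shares 23.5% of its exon bases with other genes, so its value is uncertain.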

How the data were processed

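Reads were processed with Trimmomatic, HISAT2, SAMtools and featureCounts, per the submitters' processing notes, with no versions, settings, genome build or use of strand given in the sources used here. The authors deposited FPKM, per the file headers, in 1 file of 85553 rows per library, and 25133 rows have a symbol. FPKM are not counts. Multiplied by GENCODE release 29 exon length, low values gave whole reads, with 95.9% to 96.3% of values up to 20 reads within 0.05 of a whole number. This gave the depths, the read numbers and the choice of GENCODE 29 on GRCh38 for coordinates. Rows with a mean of at least 1 FPKM (12455) entered limma 3.58.1 (R 4.3.3) as log2(FPKM + 1) values (trended prior, group as the only term, Benjamini-Hochberg adjustment, threshold 0.05). The chi-square per degree of freedom of recovered reads between replicates was 3.65 in shJARID2 and 3.16 in shSCR, more than sampling alone gives. The GC correction subtracts, in each library, a loess (span 0.3, degree 2) of deviations from the gene mean on the median GC content of annotated transcripts, for 12056 genes. Members and gene lists were chosen with earlier results of these data known. Named genes were the 10 members, tested tetraspanins, ADAM10, JARID2 and, from each list, at most 6 called genes of largest change. 1 gene was taken out of the partner and leukocyte lists and is not reported here. A gene that shares 10% or more of its exon bases with others was treated as uncertain. The steps were also run on simulated reads that had no GC trend and far fewer changed genes. That run cannot check the GC correction or the calls in libraries such as these. The alternatives were another pseudocount, 2 other filters, 2 scalings, limma-voom on recovered reads, a replicate block, the GC correction with and without that block, and each library left out.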

Additional observations from a re-analysis of the deposited data

How the results depend on the processing

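Of 390 values of 30 named genes over 13 alternatives, 354 kept their direction and side of the threshold, 26 lost their call, 2 gained one and 8 turned. The turned values were those of TSPAN4 (0.28), TSPAN5 (-0.11) and TSPAN9 (0.13) with the GC correction, with or without the replicate block, and of TSPAN31 without shSCR replicate 1 (-0.087) or shJARID2 replicate 2 (-0.06), with a range of -0.087 to 0.17 over the libraries left out. CD9, CD63, CD81, CD82, TSPAN4 and TSPAN14 were called in all 13 alternatives, TSPAN4 in 2 directions. Over all genes, leaving out 1 library gave 2168 to 3068 higher and 2462 to 3763 lower genes, lowest without shSCR replicate 2, against 3493 and 3941 with all. The GC correction gave 2587 lower genes, and 2335 with the replicate block. Higher members numbered from 1 to 2 when a library was left out. Same-numbered libraries share only a number: their deviations correlated at 0.03 across genes, and with the replicate block 2 members were higher and 7 lower, with CD151 losing its call. The scalings moved the median of all genes from -0.02 to at most 0.004, and no member changed direction under them. Depth limits CD82, CD37 and ARF6 most, with 48, 40 and 23 reads in shJARID2 replicate 1.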

Other observations

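CD151 (chromosome 11, 832843 to 839831, + strand of GRCh38) and TSPAN4 (842808 to 867116, + strand) are neighbours, 2976 bases apart, and were on opposite sides of 0 as measured (0.13 and -0.52) but both higher after GC correction (0.86 and 0.28). CD81 and CD82, on the same chromosome at 2376177 to 2397419 and at 44564427 to 44620363, were lower under both measures.

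Among tetraspanins below the filter, singled out with their values in view, TSPAN2 measured 1.22 and 1.35 FPKM in shJARID2, against 0.681 and 0.670 FPKM in shSCR, with a mean of 0.981 FPKM. TSPAN33 had about 0 and 1 reads in shJARID2, against 16 and 6 in shSCR. TIMP1, a ligand of CD63 chosen in the same way, measured 44.8 and 42.2 FPKM in shJARID2, against 62.0 and 61.7 FPKM in shSCR. Its log2 fold change was -0.50 as measured and 0.0049 after GC correction, given as a description with no p-value.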
